A study of Mus musculus with 8 samples.

Results

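Tshz2, a gene of 438.804 kb on chromosome 2 of the mouse, was examined for methylation of lysine 9 of histone H3 together with the domain of H3K9 trimethylation (H3K9me3) in which it begins. The gene was chosen by the width of that domain, the widest H3K9me3 region of the list used here, and it is 1 of 55413 genes in the annotation used. The width of the domain and the presence of H3K9me3 at the gene are therefore given as a description and no test is attached to them.

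ChIP-seq, in which fragments of chromatin are precipitated with an antibody and sequenced, had been made in embryonic fibroblasts (MEFs) of wild-type genotype. Its 8 samples fell into 4 groups of 2 replicates, which were input chromatin and chromatin precipitated with antibodies against mono-, di- and trimethylated H3K9 (H3K9me1, ab8896, H3K9me2, ab1220, and H3K9me3, ab8898). All of them came from the E1c line, which served as WT, was grown from a single sorted cell and carries a tamoxifen-inducible Cre together with floxed alleles of the methyltransferase gene Eset1 (Setdb1) that had not been deleted. Values therefore describe 1 clone of fibroblasts and no cells without a methyltransferase were compared here. The region lists hold no expression values, so that the fibroblast identity of the cells could not be checked on marker genes. For each mark a single list of regions was examined, with a start and an end for each region and with no height, score or replicate, so that replicates could not be compared, no test was made, and the depth of reads at each region cannot be told from the lists.

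Tshz2 encodes a teashirt zinc finger homeobox protein, a transcription factor that acts in the patterning of embryonic tissues. H3K9me3 is written by the Suv39h enzymes and by Setdb1 and is bound by HP1 proteins in compact, silent chromatin. H3K9me2 is mostly written by G9a and GLP and spreads over silent genes in broad blocks, whereas H3K9me1 is an intermediate of these reactions and is also found in transcribed gene bodies.

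The sequences around gene starts were compared first for their CG dinucleotides. These bear on the methylation of DNA, which the lists of H3K9 methylation do not measure. Given here, for Tshz2, for a neighbour in the flank that also carried H3K9me3 and for the nearest unmarked protein-coding neighbour after the gene, are 300 bases read 5′ to 3′ on the strand of each gene (RefSeq, GRCm38.p6). Capitals mark each CG dinucleotide. The Tshz2 promoter at the first RefSeq start lies at chr2:169632259-169632558 (+ strand), the sequence upstream of the internal RefSeq start at chr2:169736354-169736653 (+), the 4930470P17Rik promoter at chr2:170601968-170602267 (- strand) and one of the Zfp217 promoters at chr2:170131171-170131470 (-).
Tshz2: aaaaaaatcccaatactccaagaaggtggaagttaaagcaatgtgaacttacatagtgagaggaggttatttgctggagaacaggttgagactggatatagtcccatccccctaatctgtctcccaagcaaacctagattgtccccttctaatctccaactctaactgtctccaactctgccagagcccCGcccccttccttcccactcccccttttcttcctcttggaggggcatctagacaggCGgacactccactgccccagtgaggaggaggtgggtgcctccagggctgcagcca
Tshz2 internal start: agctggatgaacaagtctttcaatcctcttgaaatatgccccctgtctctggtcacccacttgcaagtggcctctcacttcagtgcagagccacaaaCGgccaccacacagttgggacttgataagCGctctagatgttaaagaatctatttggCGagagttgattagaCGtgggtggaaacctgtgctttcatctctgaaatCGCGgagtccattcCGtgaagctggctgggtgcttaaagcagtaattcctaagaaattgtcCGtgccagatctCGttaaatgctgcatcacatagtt
4930470P17Rik: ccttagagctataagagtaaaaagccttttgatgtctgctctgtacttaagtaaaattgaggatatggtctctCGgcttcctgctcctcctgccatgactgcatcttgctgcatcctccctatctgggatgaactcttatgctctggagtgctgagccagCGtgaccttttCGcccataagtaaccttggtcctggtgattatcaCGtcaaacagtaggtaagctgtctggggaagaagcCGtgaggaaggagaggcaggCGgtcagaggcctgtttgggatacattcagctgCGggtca
Zfp217: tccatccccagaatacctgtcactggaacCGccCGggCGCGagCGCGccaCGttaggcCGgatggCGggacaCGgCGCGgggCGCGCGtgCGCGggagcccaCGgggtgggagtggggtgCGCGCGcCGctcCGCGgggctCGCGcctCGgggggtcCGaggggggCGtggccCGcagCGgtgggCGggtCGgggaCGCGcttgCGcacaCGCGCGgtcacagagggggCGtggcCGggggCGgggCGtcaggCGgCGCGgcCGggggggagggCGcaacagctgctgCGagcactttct

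The first Tshz2 promoter held 2 CG dinucleotides and the window before the internal start held 9. Both windows lay wholly inside H3K9me3 and outside H3K9me1 and H3K9me2. The 4930470P17Rik promoter held 7 and was also wholly inside H3K9me3, while the Zfp217 promoter held 49 and lay in no region of any list. Another RefSeq promoter of Zfp217 (170142626 to 170142925), which also lay in no region, held 7, as many as that of 4930470P17Rik. Over 32851 RefSeq promoters on the main chromosomes the median was 7, 94.6% held at least 1 CG, and 23.3% held no more than the first Tshz2 promoter. On chromosome 2, 24.8% of 2847 promoters held no more, and the 137 of them that met H3K9me3 had a median of 5. A low CG count was thus common among all promoters and not particular to the start of Tshz2.

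How far regions can be compared between chromosomes was examined next. The regions of each mark were spread very unevenly, and the unevenness followed chromosomes. Over 20 chromosomes without Y, H3K9me3 covered between 0.236% of chromosome 18 and 57.1% of chromosome 10, with a median of 5.20%, H3K9me1 between 0.0275% and 55.0%, and H3K9me2 between 0 and 57.3%. Chromosome 2 ranked 9th for H3K9me1 (11.9%), 10th for H3K9me2 (2.63%) and 10th for H3K9me3 (6.19%, each of the assembled length). Chromosomes 8, 10 and 15 each had at least 30% of their length in H3K9me3. How the caller treated separate chromosomes is not given in the sources used here, and its part in these differences was not tested. Comparisons within chromosome 2 are therefore given first, and values across chromosomes stand beside them as descriptions.

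The H3K9me3 domain ran without a break from 169004251 to 170043000 on chromosome 2 (GRCm38), over 1038.75 kb or 1385 bins of the 750 bp grid used for calling. It was the widest of the 27108 H3K9me3 regions used here, 1.39 times as wide as the next, a region of 747 kb on chromosome 15. Of the 841 regions of chromosome 2 it was 1.72 times as wide as the next (604.5 kb), after which came regions of 249, 240, 237.75 and 212.25 kb, and the median was 6 kb. This 1 region held 9.21% of the H3K9me3 bases of chromosome 2, although it took up 0.582% of its sequence. The rank rested on how gaps are handled. When regions no more than 5 kb apart were joined, the domain did not grow and came 8th, and when gaps of up to 20 kb were joined it reached 1091.25 kb and came 42nd, since chains of regions elsewhere merged to greater lengths.

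Tshz2 (ENSMUSG00000047907, 169633013 to 170071816, + strand) began deep inside the domain and ran out of its far end. The domain started 628.762 kb before the gene, so that 60.5% of it lay before the gene start and 39.5% inside the gene. The gene ended 28.816 kb beyond the end of the domain. A second H3K9me3 region of 18 kb (170050501 to 170068500) followed after a gap of 7.5 kb and ended 3.316 kb before the end of the gene.

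Every annotated start of Tshz2 was H3K9me3-positive and none met another mark. A start was counted as met where a region shared at least 1 bp with the window of 1 kb to either side of it. The GENCODE annotation gives 5 transcripts with 4 distinct starts, at 169633013, 169633676, 169884893 and 169885835, of which the last 2 belong to transcripts whose beginning was not found. RefSeq gives 9 transcripts with 3 starts, at 169632509, 169736654 and 169736655. All 4 GENCODE and all 3 RefSeq starts were met by H3K9me3 and 0 by H3K9me1 or H3K9me2. From the first GENCODE start the nearest edge of an H3K9me1 region lay 460.988 kb away and that of an H3K9me2 region 238.238 kb away. Among all 55413 genes, 21.4% had a promoter that met H3K9me1, 11.5% H3K9me2 and 12% H3K9me3. Among the 1843 protein-coding genes of chromosome 2 these shares were 33.3%, 5.05% and 4.61%.

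The gene body was covered to 97.5% by H3K9me3 (427.988 kb in 2 regions), to 10.4% by H3K9me2 (45.75 kb in 10 regions) and to 0% by H3K9me1. The plot of covered shares sets these beside the flanks. H3K9me3 fell short of full cover only at the far end of the gene, past the end of the domain. Exons 1, 2 and 3 (767, 4979 and 486 bp) lay wholly inside H3K9me3, while the last exon (170070268 to 170071816, 1549 bp) lay outside every region, and 80.1% of the merged exonic sequence of 7.781 kb was covered. H3K9me2 met no exonic base. It covered 1.20% of the first intron (249.746 kb), 24.9% of the second (24.103 kb) and 23.4% of the third (157.174 kb), and H3K9me3 covered 100%, 100% and 94.1% of them.

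**Figure D1:**
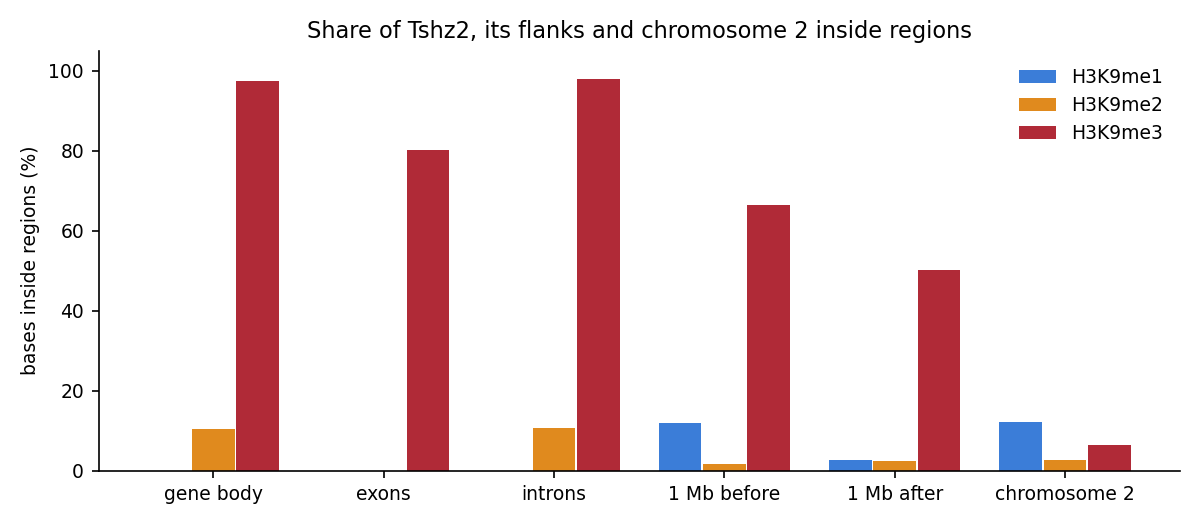
Share of bases inside regions (y axis, %) of H3K9me1 (blue), H3K9me2 (orange) and H3K9me3 (red) for the Tshz2 body, its exons and introns, the 1 Mb to either side of the gene and chromosome 2 as a whole, 1 region list per mark. H3K9me3 covered 97.5% of the body, 66.3% and 50.1% of the flanks and 6.32% of chromosome 2, while H3K9me1 was at 0% in the body.

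H3K9me2 overlaid H3K9me3 over a small part of the domain. H3K9me2 pieces of 1.5 to 12 kb, 13 in number, covered 56.25 kb or 5.42% of it. This was above the 2.69% that H3K9me2 covered of chromosome 2 as a whole, but below the 6.06% of its last 16.6 Mb, which hold the domain. Of these, 4 lay before Tshz2, the first of them 18 kb from the domain start, and 9 lay in the introns of Tshz2. Between the groups of pieces was a stretch of 680.25 kb (169191001 to 169871250) without H3K9me2, which held the 5′ end of Tshz2 and most of its first intron. The 9 intronic pieces spanned 149.25 kb and covered 29.6% of that span. The widest piece (169989001 to 170001000, 12 kb) lay in the third intron. As a result H3K9me2 covered 10.8% of the part of the domain inside Tshz2 and 1.91% of the part before it.

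Both ends of the domain were bordered by a change in H3K9me1, at some distance and with different shapes. H3K9me1 covered 67.5%, 66% and 57% of the 50 kb steps between 450 and 300 kb before the domain, 32.5% to 29.5% of the next 4 steps, 18% of the step from 100 to 50 kb and 0% of the last 50 kb. The last H3K9me1 region ended 69.75 kb before the domain, and 2 small H3K9me3 regions of 4.5 and 1.5 kb lay in the space between, the nearer one 17.25 kb away from the domain. At the other end H3K9me1 resumed 51 kb after the domain, or 22.184 kb after the end of Tshz2. It covered between 4.5% and 21% of the following steps up to 250 kb. Farther out it covered 0% from 250 to 400 kb, 1.5% from 400 to 450 kb and 0% from 450 to 500 kb. Inside the domain H3K9me2 covered more of each step toward this end, with 6%, 15%, 24.5% and 43% of the last 4 steps, and it covered 31.5% of the first 50 kb beyond it. It covered 16.5% of the first step inside the other end and 0% of the 50 kb before it.

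**Figure D2:**
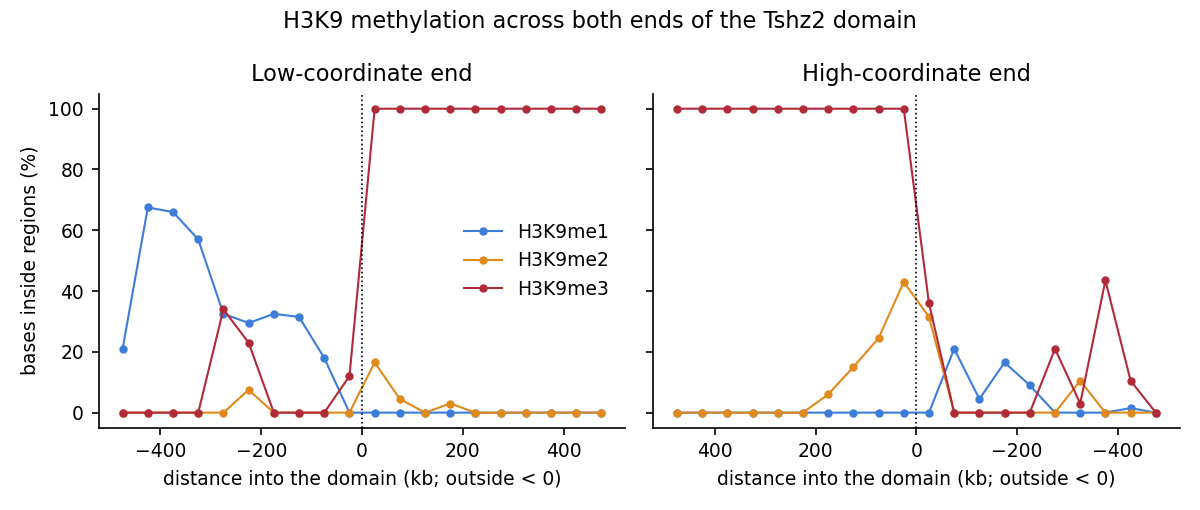
Share of bases inside regions (y axis, %) in steps of 50 kb across the low-coordinate end (left) and the high-coordinate end (right) of the domain. The x axis gives the distance from the end in kb, with positive values inside the domain, the dotted line marks the end and points stand for steps. H3K9me2 reaches 43% of the last step inside the high-coordinate end and 16.5% of the first step inside the other, and H3K9me1 is at 0% in every step shown inside the domain.

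The interval without H3K9me1 ran from 168934501 to 170094000 (1159.5 kb) and held the whole domain and the whole of Tshz2. By length it came 32nd of the 3700 intervals between H3K9me1 regions on chromosome 2, whose median was 6.75 kb and whose longest measured 6793.5 kb. Absence of H3K9me1 over such a length was hence seen elsewhere on the chromosome. Its H3K9me3 share of 91.7% followed from the choice of the domain, which fills most of it, and the intervals that came 27th and 20th by length had H3K9me3 over 80.9% and 79.0%.

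The flanks of Tshz2 were unlike each other, as the map shows. The 1 Mb before the gene was covered to 66.3% by H3K9me3, 11.8% by H3K9me1 and 1.58% by H3K9me2, and the 1 Mb after it to 50.1%, 2.63% and 2.33%. Most of the H3K9me3 before the gene was the domain itself. Counted from the domain in place of the gene, H3K9me3 covered 3.60% of the 1 Mb before it and 49.3% of the 1 Mb after it, and H3K9me1 covered 40.8% and 2.63%. The 12 H3K9me3 regions after Tshz2 lay mostly at a distance. A stretch of 227.25 kb without H3K9me3 followed the 18 kb region, and the broad regions of 212.25 kb (170601751 to 170814000), 57.75 kb and 140.25 kb made up most of the total. The first of them began before Dok5, at the start of 4930470P17Rik, and ran into Dok5, the next lay in Dok5 and the last lay beyond it.

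**Figure D3:**
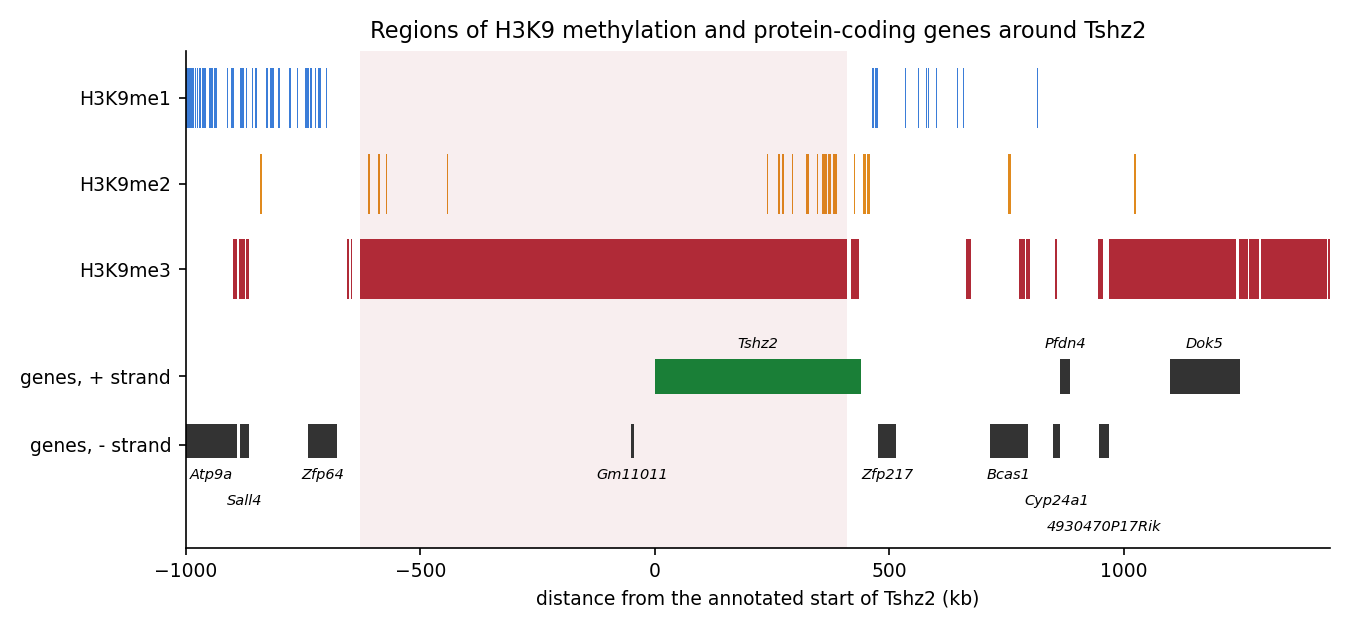
Regions of the 3 marks (top 3 rows) and protein-coding genes on either strand (bottom rows) from 1 Mb before to 1 Mb after Tshz2. The x axis gives the distance from the start of Tshz2 in kb, green marks Tshz2 and the shaded band marks the domain, which starts 628.762 kb before the gene. H3K9me1 is dense at the left of the map and absent from the band, and the broad regions at the right lie before, over and after Dok5.

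Genes inside the domain were met by H3K9me3 by their position, so their count only describes what the domain holds. The annotation places 12 genes with at least 1 base in it, which are 2 protein-coding genes (Tshz2 and Gm11011), 7 lincRNA genes, 2 provisional genes (class TEC) and 1 miRNA gene. All 12 had a start met by H3K9me3, 0 by H3K9me1, and 1, the miRNA gene Gm26469, by H3K9me2 as well. The lincRNA Gm26883 runs antisense to Tshz2 over 254.858 kb (169633646 to 169888503) and was covered to 100%. Its start lies in the second exon of Tshz2 and its far end in the first, so that this antisense gene also lay wholly inside the domain. The lincRNAs 9430093N23Rik and 4930529I22Rik, which lie before Tshz2, and AY702102 in its last intron were covered to 100% by H3K9me3 and to 0% by the other marks. A630075F10Rik, which starts in the last exon of Tshz2 and lies outside the domain, had no mark at its start and 77.0% of its body in the 18 kb H3K9me3 region.

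Of the 9 other protein-coding genes within 1 Mb of Tshz2 and outside the domain, 5 had a promoter that met H3K9me3, 2 H3K9me1, 1 H3K9me2 and 4 no mark. Among protein-coding genes of chromosome 2 the shares were 4.61%, 33.3% and 5.05%, and these neighbours were chosen for their place beside the domain. H3K9me3 covered 49.3% of the 1 Mb after the domain, but 3.60% of the 1 Mb before it, where 3 of the neighbours lay. Before the domain lay Zfp64, Sall4 and Atp9a. Zfp64, which encodes a zinc finger protein, is the nearest (48.664 kb from its start to the domain) and had no mark at its 5 starts, with 24.0% of its body in H3K9me1 and 0% in H3K9me3. Sall4, which encodes a transcription factor of pluripotent cells, was the only neighbour in which most of the body lay in both H3K9me1 (62.0%) and H3K9me3 (88.8%), and its 6 starts were all met by H3K9me3 and 2 by H3K9me1. Atp9a, a lipid flippase gene of 107.972 kb, had H3K9me1 over 51.4% and H3K9me3 over 7.64% of its body, and 7 of its 10 starts were met by H3K9me3 and 2 by H3K9me1. Of the Atp9a RefSeq promoters of 300 bases, that at 168734290 to 168734589 (3 CG) lay wholly in H3K9me1 and H3K9me3. The others, with 65, 21 and 6 CG, lay in no region of any list.

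After Tshz2 the nearest protein-coding gene was free of marks and those farther on varied. Zfp217, which encodes a zinc finger transcription factor, lies 36.827 kb beyond the end of Tshz2 and had no mark at its 4 starts and 0% of its body in any list. Bcas1, known from myelinating cells, had 2 of 7 starts met by H3K9me3 and 1 by H3K9me2, and 21.5% of its body in H3K9me3. Cyp24a1, which encodes the enzyme that inactivates vitamin D, had no mark at its start and 36.4% of its body in H3K9me3, and Pfdn4, a subunit of the chaperone prefoldin, had no mark at its 7 starts or in its body. 4930470P17Rik was met by H3K9me3 at its single start and over 36.9% of its body. Dok5, which encodes a docking protein of receptor tyrosine kinases, was met by H3K9me3 at its start and over 95.4% of its body, with 0% in H3K9me1 and H3K9me2.

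Along the chromosome as a whole, Tshz2 lay at the start of the part that was richest in H3K9me3. In windows of 5 Mb, H3K9me3 covered 21.5% of the window that holds the first part of the domain and the Tshz2 start. The domain fills that window from 169004251 on and made up most of this share, and H3K9me3 covered 3.60% of the 1 Mb before the domain. The window before that one was at 20.8%. H3K9me3 covered 49.3% of the next window, in which the domain reaches only to 170043000. In the windows without the domain the lowest value was 0.21%, the median 2.39% and the highest 37.4%. The last 16.6 Mb of the chromosome (from 165 Mb, where the window with the start of the domain begins, a limit set after the windows were seen) made up 9.29% of its sequence and held 47.3% of its H3K9me3, and 41.9% of the remaining H3K9me3 without the domain. Coverage was 32.2% there, 27.7% without the domain, and 3.67% on the rest of the chromosome. Most of the H3K9me3 behind the 27.7% lay after the domain, in the windows at 49.3% and 37.4%. Of the 29 H3K9me3 regions of at least 50 kb on chromosome 2, 22 lay in this last part. H3K9me1 covered 18.5% of it against 11.5% of the rest, and H3K9me2 6.06% against 2.35%. Its GC content was 46.5%, against 41.6% before it, and its soft-masked repeat share 30.6% against 32.3%, and the part of base composition in these differences was not tested.

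**Figure D4:**
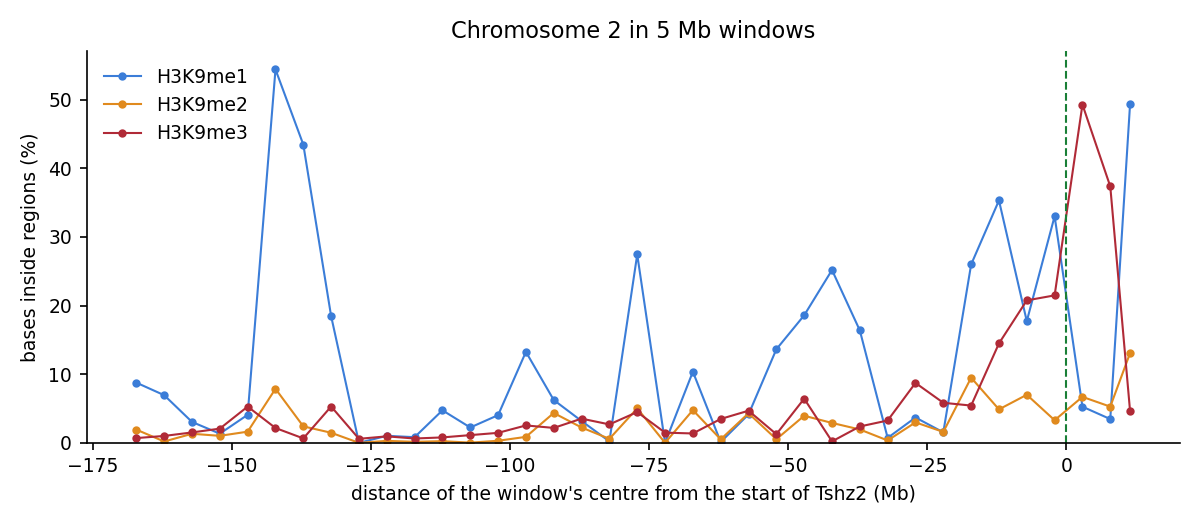
Share of bases inside regions (y axis, %) of H3K9me1 (blue), H3K9me2 (orange) and H3K9me3 (red) in 37 windows of 5 Mb along chromosome 2, each drawn at the distance of its centre from the start of Tshz2 in Mb (x axis, dashed line at Tshz2). H3K9me3 has a median of 2.39% in the windows without the domain and reaches 49.3% in the window just right of the line.

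In sequence the domain was richer in GC and CG and poorer in repeats than most of chromosome 2, and against other broad H3K9me3 regions it stood near the middle in GC and repeats and toward the upper end in CG. It had 46.2% GC, 13.8 CG dinucleotides per kb and 23.4% soft-masked repeats. In 167 windows of the same length along chromosome 2 the medians were 41.9%, 8.05 per kb and 30.1%, with 82.6% of the windows lower in GC, 95.2% lower in CG and 7.78% lower in repeats. In the 28 other H3K9me3 regions of at least 50 kb on chromosome 2 the medians were 45.7%, 10.3 per kb and 23.4%, and 16, 24 and 14 of them lay below the domain. It held 1.93 starts of protein-coding genes per Mb, against 10.3 on chromosome 2, 11 in the 1 Mb before it and 6 in the 1 Mb after it. The core motif of CTCF, a protein found at the borders of many chromatin domains, was searched on both strands as a consensus. Sites that differ from the consensus were not counted, and binding of CTCF was not tested. The consensus had 500 matches on chromosome 2 (2.80 per Mb), 0 in the domain and 0 within 7.5 kb of either of its ends. It had 10.8 per Mb in the flank before Tshz2 outside the domain and 5 per Mb in the flank after. The nearest match to the start lay 99.898 kb before it and the nearest to the end 17.259 kb after it. Most ends had none, since a match was found for 3.03% of the 1682 ends of H3K9me3 regions on chromosome 2 and for 12.1% of the 58 ends of regions of at least 50 kb.

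The other broad H3K9me3 regions of chromosome 2 were likewise nearly free of H3K9me1, and most held little or no H3K9me2. The H3K9me2 share reached 33.1% in 1 of them and was 23.0% in the widest, of 604.5 kb. Of these 28, 26 (92.9%, Wilson 95% interval 77.4 to 98.0%, for counting error only) held no H3K9me1, the highest share was 2.98%, and the median H3K9me2 share was 0%, with 23 below the 5.42% of the domain. The interval takes regions as independent, although 22 of the 29 that include the domain lie together in the last part of the chromosome. Over all chromosomes the picture differed. Of 898 other regions of that width, 224 (24.9%, interval 22.2 to 27.9%) held no H3K9me1, the median H3K9me2 share was 93.1%, and 111 had less H3K9me2 than the Tshz2 domain. Most of this came from chromosomes 8, 10 and 15, whose 597 regions had a median of 97.1% H3K9me2 and of which 7.37% held no H3K9me1. On the other chromosomes 59.8% of 301 regions held no H3K9me1 and the median H3K9me2 share was 24.4%.

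**Figure D5:**
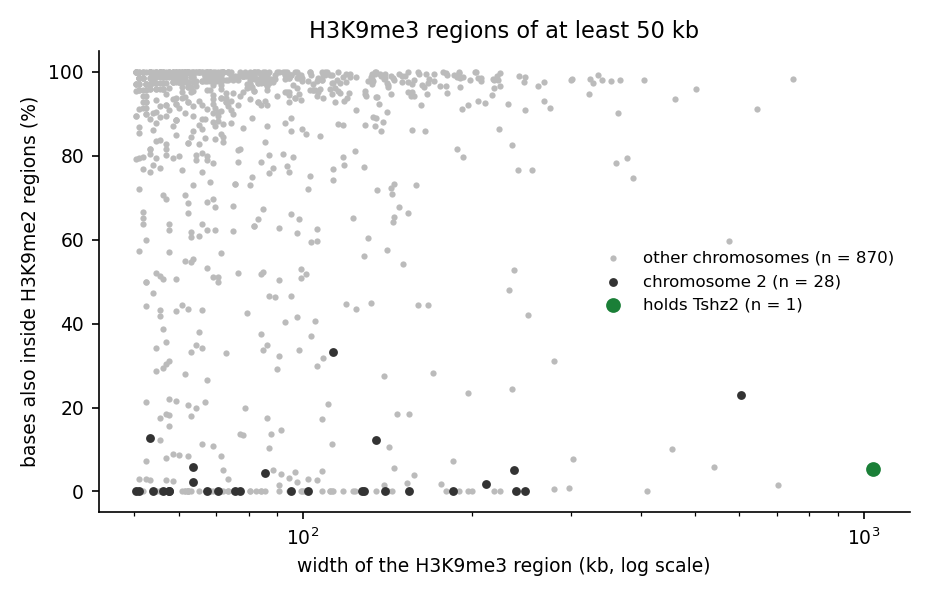
Width in kb (x axis, log scale) and share of bases also inside H3K9me2 (y axis, %) of H3K9me3 regions of at least 50 kb, each point 1 region on another chromosome (grey), on chromosome 2 (black) or the Tshz2 domain (green). The domain lies at 1038.75 kb and 5.42%, farthest to the right, and the 28 black points stay at or below 33.1% while many grey points lie near 100%.

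Among long genes a cover of this kind was rare, and that of Tshz2 largely followed from its choice by the domain. Of 2492 protein-coding genes of at least 100 kb, 84 (3.37%) had at least 90% of the body in H3K9me3, and 30 of them had a higher share than Tshz2. On chromosome 2 these were 3 of 203 (1.48%), namely Tshz2, Phactr3 (97.4%), which encodes a regulator of protein phosphatase, and Dok5 (95.4%). Cdh4, which encodes a cadherin, followed with 81.3%. The 84 genes had a median of 30.9% in H3K9me1 and 89.2% in H3K9me2, and 19 of them had 0% in H3K9me1, as Tshz2 had. Over all 2492 long genes the median was 0% for each mark, and 1363 of them had 0% in H3K9me1. On chromosome 2, 62 of the 203 long genes had 0% in H3K9me1, so that its absence from the body was common. By the distance between the 3 body shares, in percentage points, the 5 most like Tshz2 were Lama1 (distance 2.90), Auts2 (4.63), Stac (5.10), Srrm4 (5.31) and Kif6 (5.67), which lie on chromosomes 17, 5, 9, 5 and 17. Lama1, which encodes a laminin chain, had H3K9me1 over 0%, H3K9me2 over 12.0% and H3K9me3 over 100% of its body. Auts2, a gene of neuronal development, was covered to 0.151%, 8.75% and 93.2%. Stac, an adaptor protein gene of muscle and neurons, stood at 0%, 10.5% and 92.4%, Srrm4, which encodes a neuronal splicing regulator, at 0%, 5.72% and 100%, and Kif6, a kinesin gene, at 0%, 5.21% and 99.7%. A start of each of the 5 genes met H3K9me3, and a start of Auts2, Srrm4 and Kif6 also met H3K9me2, which no start of Tshz2 did.

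Genes that encode other zinc finger homeobox proteins or their relatives were mostly without H3K9me3. Of these 13 genes, 1 had a promoter that met H3K9me3, 3 H3K9me1, 1 H3K9me2 and 10 no mark, and 7 had no mark in the body. Among all genes 12% had a promoter that met H3K9me3, 21.4% H3K9me1 and 11.5% H3K9me2, and with so few genes these counts lay near that background. Tshz1 and Tshz3, the closest relatives of Tshz2, had no mark at their 4 and 2 starts or in their bodies of 76.1 and 75.4 kb. They lie on chromosomes 18 and 7, where H3K9me3 covered 0.236% and 2.16% in all, so that the absence is not particular to them. On chromosome 2, Adnp (797.139 kb before the domain) and Zeb2 had no mark, and Zhx3 had 22.9% of its body in H3K9me1 and no mark at its 5 starts. The gene with H3K9me3 at a promoter was Zfhx3 on chromosome 8, a gene of 1019 kb with 4 of 7 starts met by H3K9me3, 4 by H3K9me2 and 3 by H3K9me1. Its body lay to 67.6% in H3K9me3, 68.3% in H3K9me2 and 50.1% in H3K9me1, so that it carried the 3 marks at similar shares where Tshz2 carried mainly 1. Homez and Zfhx2 on chromosome 14 had H3K9me1 at 2 and 1 of their 4 starts and over 34.1% and 77.9% of their bodies, with 0% in H3K9me3. Zhx1 and Zhx2 on chromosome 15 had no mark at their starts, but 93.9% and 91.8% of their bodies lay in H3K9me1 and 33.0% and 7.75% in H3K9me3. Adnp2, Zeb1 and Zfhx4, which lie on chromosomes 18, 18 and 3, had no mark.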

How the data were processed

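ChIP-seq region lists for mono-, di- and trimethylated H3K9 in WT MEFs were examined. The authors mapped the reads to GRCm38 (mm10) with BWA 0.7.1, per the labels' processing notes and the methods, and called regions with histoneHMM. The deposited lists give region positions only (chromosome, start and end on a 750 bp grid), with no score, count or coverage. How replicates and input entered a call and its posterior threshold are not given in the sources used here. All 3 lists were used whole as received. Each holds slightly fewer regions than the study's text counts, for a reason not determined, so ranks and shares refer to the regions used here. In all, 0 columns of per-sample values were left unused.

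Covered bases were counted with Python 3.11.15 and NumPy 2.4.6 on GENCODE M21 (GRCm38), checked on simulated regions. Percentages of intervals and of 5 Mb windows leave out bases that are not known, while those of whole chromosomes given as ranks use the assembled length. A promoter was the window of 1 kb to either side of a start, met by at least 1 bp. Broad regions had at least 50 kb and long genes at least 100 kb. Named genes were the protein-coding genes within 1 Mb of Tshz2, the named non-coding genes inside the domain, the zinc finger homeobox list and the 5 long genes nearest in the 3 body shares (Euclidean distance). Phactr3, Cdh4, Gm26469, Gm26883 and A630075F10Rik were chosen after their values were seen. The gene and the lists were chosen with earlier results of these data known. Wilson intervals cover counting error only and take regions as independent, although many lie close together. Alternatives were regions of at least 5 kb, joined gaps, other flank lengths and promoter windows, and, chosen after seeing the data, RefSeq starts and flanks from the domain ends. The windows along chromosome 2 and the coverage by chromosome were also added after seeing the data. Promoter sequences are from RefSeq.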

Additional observations from a re-analysis of the deposited data

How the results depend on the processing

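The lists hold 1 set of regions per mark and no value per replicate, so leaving out a replicate was not run. No paired analysis was possible because the result comes from no test and the lists carry no replicate numbers. Of 72 alternative values, 51 stayed within the 95% Wilson interval of the main share over bins of 750 bp (for counts, within 1.5-fold), and 21 did not. The starts of Tshz2 and its H3K9me3 body share were among those that stayed. All starts lie at least 157.165 kb before the domain end, deep inside the domain by which the gene was chosen. Other promoter windows could therefore not change their counts, and leaving out narrow regions could not change a share of 0%. The number that stayed is thus no measure of how firm the results are. Regions of at least 5 kb gave H3K9me1 shares of 7.5% (flank before Tshz2) and 0.525% (after), and H3K9me2 shares of 7.35% (gene body), 0.525% (flank before) and 3.61% (domain). Joining regions at most 5 kb apart gave 14.62% H3K9me1 before the gene. Flanks of 500 kb before and after gave 0% and 5.25% H3K9me1, 0.3% and 3.9% H3K9me2, and 100% and 7.8% H3K9me3. Flanks of 2 Mb gave 28.57% and 1.35% H3K9me1, 3.15% and 1.163% H3K9me2, and 33.24% and 68.85% H3K9me3. Counted from the domain, the 1 Mb before it held 40.8% H3K9me1, 5.1% H3K9me2 and 3.6% H3K9me3. Shares of flanks thus depend on their length by construction. Without read counts, a base outside every region cannot be told apart from a base with too few reads.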
